A study of Homo sapiens with 2 samples.

Results

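The DNA repair genes were taken from the table by symbol. The rule took each gene named FANC and a letter, or RAD, XRCC, ERCC, MSH, MLH or PMS and a digit, and in addition UNG, BRCA1, BRCA2, BARD1, PALB2, BLM, NBN, MRE11, ATM, ATR, PARP1, APEX1, OGG1 and LIG4. Hyphenated names were left out, which removed 1 gene, MSH5-SAPCD1. This gave 64 of the 10987 genes of the table. By their known roles they were sorted into Fanconi genes (10), recombination (18), base excision (5), nucleotide excision (9), mismatch repair (7), end joining (4) and checkpoint genes (5), and 6 genes that carry such a name but act mainly elsewhere.

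The values came from a library of THP1 cells kept for 24 h with bort (bortezomib, an inhibitor of the proteasome) and a library of THP1 cells left untreated. THP1 is a human monocytic leukaemia line that carries the MLL-AF9 fusion, and the dose of bort for these libraries is not given in the sources used here. The sample labels name a TruSeq kit, while the methods of the study describe a stranded KAPA kit. With 1 library per condition no difference had a replicate check, no p-value could be computed, and each comparison was between libraries. Of 8 monocytic marker genes 4 were listed, with a summed level of 14.4 FPKM in the untreated and 35.7 FPKM in the bort library, most of it from LYZ. CD14, CSF1R, MPO and S100A8 were not listed. All 8 erythroid markers were listed, with sums of 3117 and 3048 FPKM, most of it from the fetal haemoglobin genes HBG1, at 1487 and 1536 FPKM, and HBG2. The sums hide lower levels of 3 of the 8 by more than 2-fold in the bort library, named after their values were seen: KLF1 at 147 and 17.4 FPKM (-3.01 on the log2 scale), GATA1 at 161 and 48.7 FPKM (-1.71) and EPOR at 8.43 and 2.83 FPKM (-1.30). These levels went against the label of a monocytic line, so both libraries are named here by their labels, and the part of this in the results below was not tested.

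Cells mend DNA by several routes that share few proteins. Base excision removes small damaged bases, nucleotide excision cuts out bulky lesions, and mismatch repair corrects errors of replication. Fanconi proteins open the way past crosslinks between strands, and breaks are then rebuilt from the sister copy by recombination or joined directly at their ends.

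The unit was FPKM, fragments scaled to the length of the transcript and to the mapped fragments of the library, which can be compared between genes. Fold changes are differences of log2(FPKM + 1), bort minus untreated, on which changes at low FPKM come out smaller than they are. Among the repair genes the level in the untreated library ran from 0.584 FPKM for RAD51B to 191 FPKM for XRCC6, with a median of 7.36. In the bort library the same genes stood at the ends, at 0.533 and 137 FPKM, and the median was 8.15. The medians of all genes were 5.85 and 6.02 FPKM. RAD51B and ERCC4 were under 1 FPKM in both libraries, and 5 repair genes were under it in at least 1. A lower level in such bulk RNA can come from fewer cells that express a gene or from less RNA per cell, and these cannot be told apart.

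By 1.5-fold or more, 8 of the 64 repair genes were higher in the bort library, against 20.8% of all genes, and 7 were lower, against 21.6% of all genes. Together 15 passed it, against 42.4% of all genes, and 49 lay within 1.5-fold. FANCL, FANCB, FANCM, RAD51AP1, BARD1, ERCC8, RAD18 and RAD21 were the higher ones. UNG, ERCC2, XRCC3, PARP1, XRCC1 and XRCC5 were among the lower ones. At 2-fold, 2 repair genes were higher (8.08% of all genes) and 4 were lower (10.2% of all genes), 6 in all (18.3% of all genes). Scaled to the upper quartile, or to the total without the 20 most abundant genes, 13 repair genes were at least 1.5-fold higher and 7 at least 1.5-fold lower. Of all genes 24.2% and 24.4% were then higher by as much and 19% and 18.8% lower. With the GC trend described below removed, 5 repair genes were higher (18% of all genes) and 6 lower (17.3% of all genes). At 2-fold the number higher ran from 0 with the GC trend removed (7.04% of all genes) to 6 with a pseudocount of 0.1 FPKM (14.3% of all genes) or none (15.1%), and the number lower from 1 with the GC trend removed (6.24% of all genes) to 4.

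**Figure D1:**
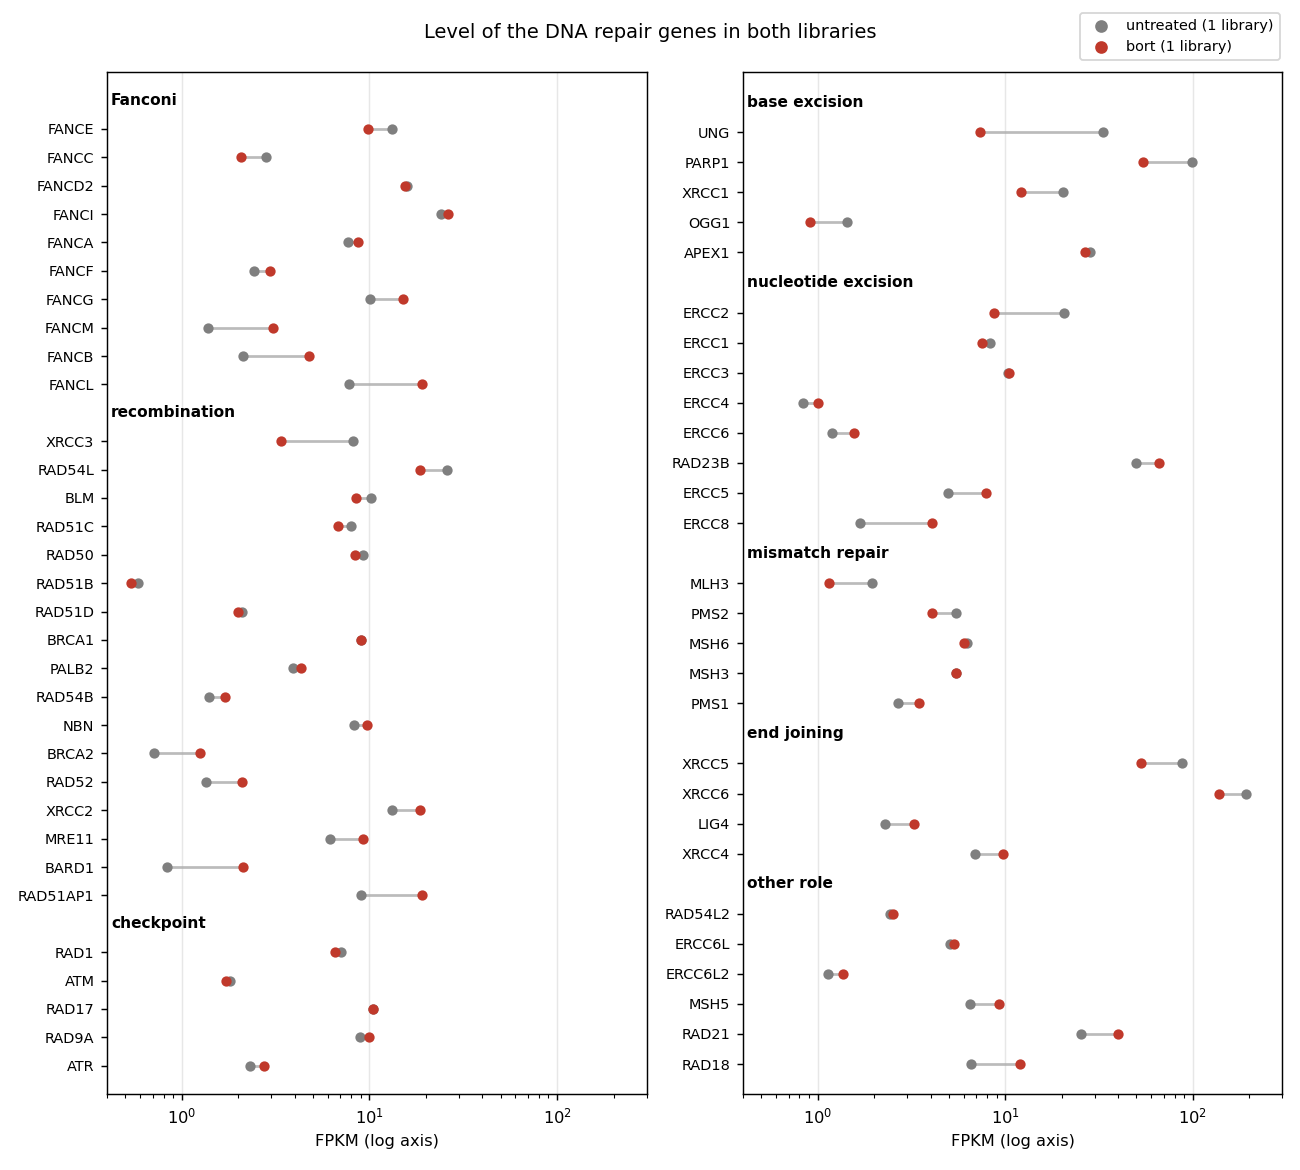
FPKM of 60 of the 64 repair genes on a log axis, grouped by role and ordered by fold change within each group. Grey points are the untreated and red points the bort library, 1 library each. Most pairs of points lie close together, and the widest gap is that of UNG, at 33.2 and 7.34 FPKM.

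The groups differed in how their genes were spread around the median of all genes, which was 0.00 on the log2 scale. Of all genes 5526 were higher and 5461 lower in the bort library. The median log2 fold change was 0.18 for the Fanconi genes, 0.14 for recombination and 0.12 for nucleotide excision, the last 2 of which turned negative with the GC trend removed (-0.20 and -0.07). For mismatch repair it was 0.01 (-0.26 with the GC trend removed), for end joining -0.05 and for the checkpoint genes -0.01, and the last 2 turned positive with upper quartile scaling (0.04 and 0.09) and without the 20 most abundant genes (0.05 and 0.10). With these scalings the median of all genes itself became 0.09 and 0.10. Turns of sign under them, here and below, thus came with a shift of all genes. Base excision stood lowest, with a median of -0.71, but not with the GC trend removed (-0.34, against -0.36 for the checkpoint genes). Over both kinds of excision together, 14 genes, the median was -0.10, which became 0.00 with either of these scalings and -0.23 with the GC trend removed. Whether the groups differ from each other was not tested, since genes are not replicates.

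**Figure D2:**
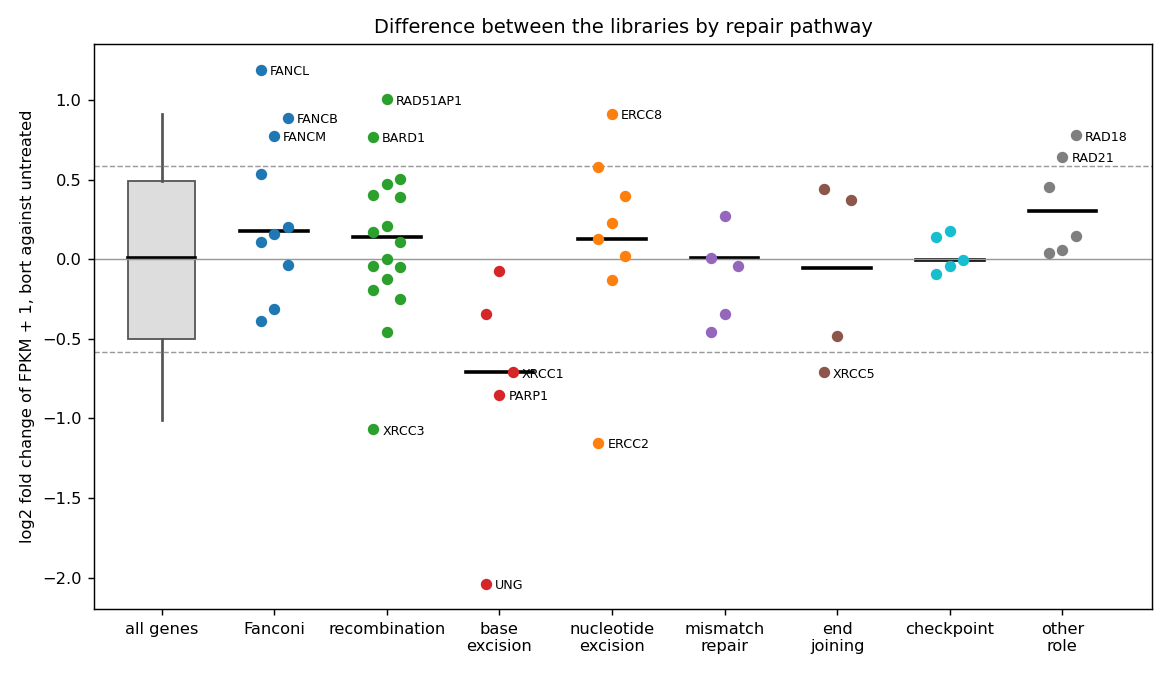
Log2 fold change of FPKM + 1, bort against untreated, for 60 of the repair genes by group, with black bars at the medians of the whole groups and dashed lines at 1.5-fold. The box for all 10987 genes spans the 25th to the 75th percentile (-0.50 to 0.49) and its lines reach the 10th and the 90th (-1.01 and 0.91). UNG lies far below the other genes, and the genes of mismatch repair and the checkpoint lie within the dashed lines.

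Promoters from the RefSeq table of start sites are shown for genes past 2-fold, so that the sequence before genes that were lower (UNG, ERCC2, XRCC3) can be set beside that before genes that were higher (FANCL, RAD51AP1). Each is the 250 bases before the start in build GRCh38.p14, read 5′ to 3′ in the direction of the gene, and is cut short where GENCODE 29 places an exon of the gene over more than 30 of them. UNG has a pair of start sites, which give rise to a nuclear and a mitochondrial form of the enzyme. Capitals mark matches on either strand to TTCCCGC or TTGGCGC (letters bound by E2F factors), to CCAAT (the box bound by NF-Y) and to TTTGAA (the CHR element of cell cycle genes). The E2F letters GCGCCAA, the reverse of TTGGCGC, can overlap CCAAT, and do so at the downstream UNG start.
UNG, upstream start, chr12:109097347-109097596, plus strand: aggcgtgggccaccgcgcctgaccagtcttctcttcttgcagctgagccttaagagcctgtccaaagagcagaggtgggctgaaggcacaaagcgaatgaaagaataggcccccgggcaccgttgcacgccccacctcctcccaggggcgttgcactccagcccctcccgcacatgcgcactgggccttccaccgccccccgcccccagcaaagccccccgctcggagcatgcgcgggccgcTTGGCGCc
UNG, downstream start, chr12:109097922-109098117, plus strand: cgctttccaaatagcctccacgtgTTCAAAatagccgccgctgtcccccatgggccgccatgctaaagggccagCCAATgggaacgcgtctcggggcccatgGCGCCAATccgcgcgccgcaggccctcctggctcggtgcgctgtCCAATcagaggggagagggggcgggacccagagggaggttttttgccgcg
ERCC2, chr19:45370574-45370823, minus strand: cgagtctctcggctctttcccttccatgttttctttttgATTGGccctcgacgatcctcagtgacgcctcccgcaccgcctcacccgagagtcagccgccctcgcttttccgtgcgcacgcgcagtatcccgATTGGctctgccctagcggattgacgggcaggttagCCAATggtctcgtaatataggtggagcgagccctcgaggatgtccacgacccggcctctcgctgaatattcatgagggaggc
XRCC3, chr14:103715505-103715701, minus strand: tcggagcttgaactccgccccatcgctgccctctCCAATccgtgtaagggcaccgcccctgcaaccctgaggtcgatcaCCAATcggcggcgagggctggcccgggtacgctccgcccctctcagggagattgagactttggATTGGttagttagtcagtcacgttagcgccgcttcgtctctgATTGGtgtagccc
FANCL, chr2:58241326-58241575, minus strand: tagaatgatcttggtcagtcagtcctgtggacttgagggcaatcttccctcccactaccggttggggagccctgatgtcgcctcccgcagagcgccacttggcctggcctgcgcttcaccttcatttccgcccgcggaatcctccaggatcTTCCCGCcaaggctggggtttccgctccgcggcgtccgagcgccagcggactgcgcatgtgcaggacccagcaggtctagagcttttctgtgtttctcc
RAD51AP1, chr12:4538640-4538889, plus strand: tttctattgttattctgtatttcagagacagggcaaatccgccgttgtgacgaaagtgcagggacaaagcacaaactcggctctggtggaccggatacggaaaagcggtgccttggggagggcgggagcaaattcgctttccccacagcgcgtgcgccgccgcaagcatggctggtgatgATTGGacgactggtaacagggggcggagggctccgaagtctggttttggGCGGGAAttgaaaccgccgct

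The E2F letters were found before both UNG starts, FANCL and RAD51AP1, and not before ERCC2 or XRCC3. In the stretches shown ERCC2 held 3 CCAAT boxes, XRCC3 held 4, and the downstream UNG start held 3. Over 250 bases, 55 of the 64 repair genes had 79 promoters in the table. FANCI, NBN, RAD21, RAD54B and XRCC5 were among those without an entry. The E2F letters were in 24 of these 79 promoters (30.4%), against 7.81% of all 35116 promoters. CCAAT was in 34 (43.0%), against 32.01%, and TTTGAA in 9 (11.4%), against 13.3%. The letters TGATGNAA, which resemble the element bound by ATF4, were in 0 of the 79, against 3.14%. The E2F letters were in 2 of the 7 promoters of genes higher by 1.5-fold or more and in 4 of the 6 promoters of genes that were lower by as much, where the 2 UNG starts count separately. The motifs were chosen after the expression values were seen, and a match is a description of the letters only.

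The Fanconi genes held the highest fold change of the 64 genes, except without a pseudocount, when BARD1 was above FANCL (1.35 and 1.29). FANCL, the ubiquitin ligase of the Fanconi core complex, was at 7.76 FPKM in the untreated and 18.99 FPKM in the bort library, a log2 fold change of 1.19, and 571 of the 10987 genes had a higher one. FANCB, which binds FANCL in the catalytic part of the complex, was at 2.13 and 4.79 FPKM (0.89). FANCM, the translocase that brings the complex to DNA, was at 1.38 and 3.07 FPKM (0.78). All 3 were thus more than doubled in FPKM, although FANCB and FANCM started from low levels. When the trend of fold changes with GC content was removed, FANCL kept a log2 fold change of 0.78, while FANCB (0.35) and FANCM (0.29) lay within 1.5-fold.

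The remaining core subunits spread to either side. FANCG, a scaffold subunit, was at 10.1 and 15.1 FPKM (0.53), just short of 1.5-fold, and reached 0.90 with the GC trend removed. FANCE, the subunit that contacts FANCD2, had the lowest fold change of the group, at 13.2 and 9.80 FPKM (-0.39). With the GC trend removed it did not (-0.03, against -0.21 for FANCC and FANCD2). FANCC was also below FANCE with a pseudocount of 0.1 FPKM (-0.424 against -0.422) and with none (-0.442 against -0.426). The other core genes FANCA, FANCC and FANCF lay between -0.31 and 0.20. The substrates of the ligase hardly differed between the libraries. FANCD2 was at 16.0 and 15.6 FPKM (-0.03, positive with 2 of the scalings). FANCI, its partner in the clamp and the most abundant gene of the group, was at 24.2 and 26.2 FPKM (0.11, or -0.10 with the GC trend removed). In all, 7 of the 10 Fanconi genes were higher and 3 lower, or 8 and 2 with upper quartile scaling and without the 20 most abundant genes, and 6 and 4 with the GC trend removed.

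Of 15 further genes of the Fanconi pathway all were listed, 9 higher and 6 lower, with a median of 0.16. DCLRE1A, a nuclease that acts on crosslinks, had the highest fold change at 6.87 and 12.5 FPKM (0.78). With the GC trend removed DCLRE1A was at 0.38 and CENPS was highest (0.66). FAAP20, a small core subunit that binds ubiquitin, had the lowest fold change at 5.96 and 1.997 FPKM (-1.22). FAAP100, named after its value was seen because it joins FANCB and FANCL in the catalytic part, was at 13.2 and 5.24 FPKM (-1.19, or -0.51 with the GC trend removed). The 3 genes of this module did not share a direction, and they also differed in GC content, at 65.8% for the FAAP100 transcript against 36.4% for FANCB and 39.3% for FANCL. UBE2T, the conjugating enzyme that works with FANCL and likewise named after its value was seen, was at 25.9 and 36.5 FPKM (0.48). Its FPKM was 3.33 times that of FANCL in the untreated and 1.92 times in the bort library.

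Recombination was the largest group, with 10 of 18 genes higher and 8 lower (12 and 6 with upper quartile scaling and without the 20 most abundant genes, but 6 and 12 with the GC trend removed). Past 1.5-fold were 3 of the 18, against 42.4% of all genes. RAD51AP1, which helps the broken strand to invade the sister copy, was at 8.996 FPKM in the untreated and 19.1 FPKM in the bort library (1.00). XRCC3, which acts in the same route, went the other way, at 8.18 and 3.38 FPKM (-1.07). With the GC trend removed RAD51AP1 had a log2 fold change of 0.45 and XRCC3 of -0.48, so that neither passed 1.5-fold. RAD51AP1 also has a named pseudogene copy, and XRCC3 overlaps KLC1 on the opposite strand.

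XRCC2, RAD51B, RAD51C and RAD51D, which assist strand exchange together with XRCC3, did not share a direction. XRCC2 was at 13.1 and 18.6 FPKM (0.47), while the others of these lay between -0.19 and -0.04, RAD51D turning positive with 2 of the scalings. RAD54L, a motor protein of strand exchange and the most abundant gene of the group on the mean of both libraries, was at 26.0 and 18.6 FPKM (-0.46). BLM, the helicase that dissolves crossed strands, was at 10.3 and 8.47 FPKM (-0.25). RAD52, an annealing factor, stood at the low end with 1.34 and 2.10 FPKM (0.40).

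The BRCA genes, which prepare broken DNA for strand exchange, differed mainly in the low partners. BRCA1 was at 9.04 and 9.03 FPKM (0.00), nearly the same in both libraries, and at -0.28 with the GC trend removed. BARD1, with which BRCA1 forms a ubiquitin ligase, was at 0.835 and 2.13 FPKM (0.77). The ratio of BARD1 to BRCA1 in FPKM was accordingly 0.0924 in the untreated and 0.236 in the bort library, so BARD1 transcripts were the scarcer of the pair in both. PALB2, the bridge between BRCA1 and BRCA2, was at 3.94 and 4.32 FPKM (0.11, or -0.13 with the GC trend removed). BRCA2 itself was at 0.713 and 1.25 FPKM (0.39), a level at which the added 1 FPKM shrinks the fold change most, and without it the log2 fold changes of BRCA2 and BARD1 were 0.81 and 1.35. The GC trend removed, they were -0.15 and 0.30, so that BRCA2 changed its sign.

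The MRN complex holds and trims broken ends. MRE11, its nuclease, was at 6.19 and 9.20 FPKM (0.51). RAD50, the arm of the complex, was at 9.25 and 8.41 FPKM (-0.12), and NBN, which recruits the checkpoint kinase ATM, was at 8.25 and 9.67 FPKM (0.21). With the GC trend removed MRE11 fell to 0.05 and RAD50 to -0.42, and NBN turned to -0.29. The FPKM of MRE11 was 0.669 times that of RAD50 in the untreated and 1.09 times in the bort library, which reversed their order. RAD50 shares exon sequence on its strand with AC116366.3, and MRE11 has a pseudogene copy, so these levels carry some uncertainty. Of 19 further recombination genes 11 were higher and 8 lower (median 0.11). SEM1, a small partner of BRCA2 that is also a proteasome subunit, had the highest fold change among them at 6.37 and 15.4 FPKM (1.16), and SLX1A, a junction nuclease with a near-identical paralog, the lowest at 11.0 and 4.12 FPKM (-1.23). Both lay within 1.5-fold with the GC trend removed (0.44 and -0.48), when EME1 was higher (0.50) and GEN1 lower (-0.90).

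**Figure D3:**
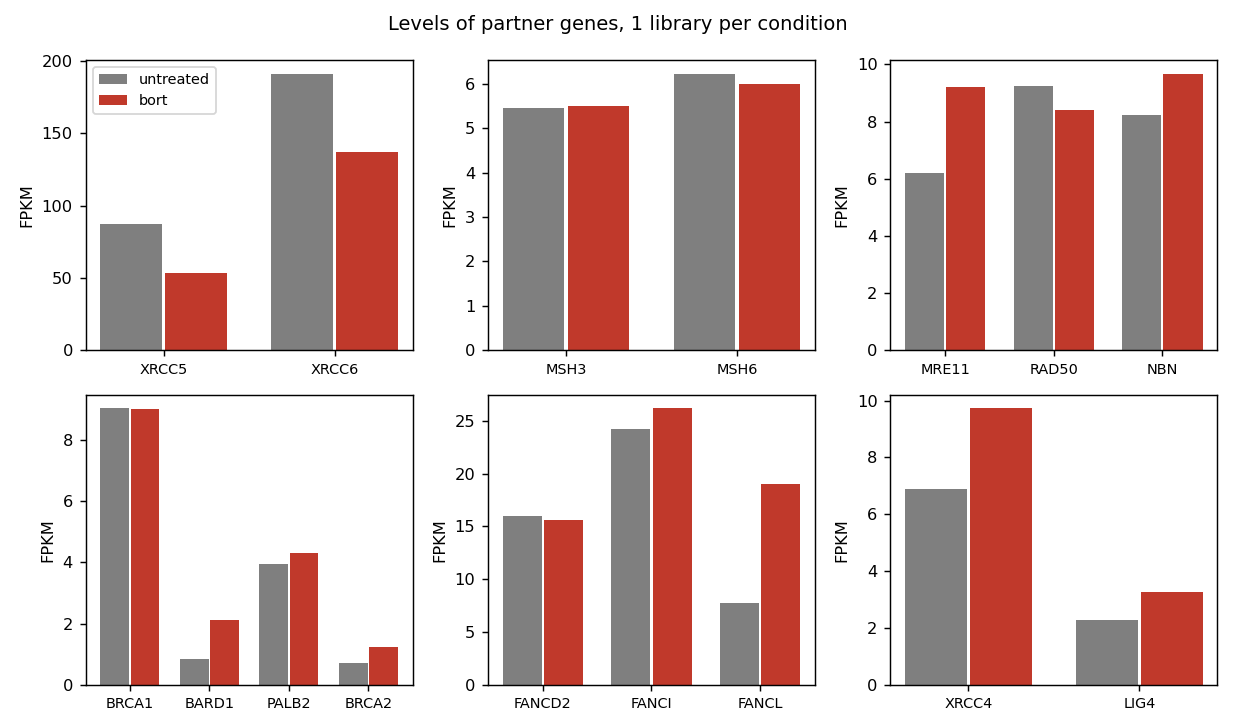
FPKM of genes whose products work together, untreated in grey and bort in red, 1 library each, with a scale of its own in each panel. XRCC5 and XRCC6 are both lower in the bort library, and BRCA1 stays at 9.04 and 9.03 FPKM beside a higher BARD1.

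All 5 base excision genes were lower in the bort library (4 with upper quartile scaling, without the 20 most abundant genes or with the GC trend removed). By 1.5-fold or more 3 of the 5 were lower, against 21.6% of all genes. XRCC1 was not among these with the GC trend removed. UNG, the glycosylase that removes uracil from DNA, was at 33.2 FPKM in the untreated and 7.34 FPKM in the bort library, a log2 fold change of -2.04. Of the 10987 genes, 129 had a lower fold change than UNG, and no other repair gene was as low. It was the 1 repair gene that stayed past 2-fold under each alternative tried, with log2 fold changes from -2.18 to -1.93. UNG has 2 named pseudogene copies, UNGP1 and UNGP3.

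The other base excision genes were lower by less. PARP1, which senses strand breaks and recruits the repair proteins, was the most abundant gene of the group at 98.7 and 54.2 FPKM (-0.85). XRCC1, the scaffold that PARP1 recruits, was at 20.4 and 12.1 FPKM (-0.71), and -0.34 with the GC trend removed. OGG1, the glycosylase for oxidised guanine, was low at 1.43 and 0.914 FPKM (-0.35). APEX1, the endonuclease that cuts at the empty site, was at 28.2 and 26.7 FPKM (-0.08), and its sign turned with upper quartile scaling, without the 20 most abundant genes and with the GC trend removed. The summed level of the 5 genes was 182 FPKM in the untreated and 101 FPKM in the bort library.

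The further genes of base excision were not all lower, with 8 of 16 higher and 8 lower and a median of -0.08. The median was 0.02 with upper quartile scaling and without the 20 most abundant genes, and 0.05 with the GC trend removed (9 higher and 7 lower). It was -0.22 over the genes with 1 FPKM or more on the mean or in both libraries. MPG, the glycosylase for alkylated bases, had the lowest fold change at 48.9 and 15.6 FPKM (-1.59). NTHL1, the glycosylase for oxidised pyrimidines, was at 19.7 and 5.97 FPKM (-1.57), and FEN1, the flap nuclease, at 151 and 54.0 FPKM (-1.47). Both were named after their values were seen, as the other genes of this list past 2-fold. The highest fold change was that of MBD4, the glycosylase for thymine opposite guanine, at 10.045 and 16.8 FPKM (0.69). With the GC trend removed FEN1 was lowest (-1.24), while MPG (-0.91) and NTHL1 (-0.99) fell short of 2-fold. MBD4 then lay within 1.5-fold (0.45), below NEIL1 (0.81, or 0.33 before the trend was removed). NEIL1 was under 1 FPKM in both libraries, at 0.268 and 0.598 FPKM.

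In nucleotide excision 6 genes were higher and 3 lower (4 and 5 with the GC trend removed). Of the 9 genes 3 passed 1.5-fold, against 42.4% of all genes. RAD23B, which holds the damage sensor XPC, was the most abundant gene of the group, at 49.5 FPKM in the untreated and 65.6 FPKM in the bort library (0.40). Its log2 fold change lay between 0.15 and 0.51 under the alternatives, and it has 3 named pseudogene copies.

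TFIIH unwinds DNA around the lesion with a pair of helicases. ERCC2, the XPD helicase, was at 20.5 and 8.69 FPKM (-1.15), and ERCC3, the XPB helicase, was at 10.3 and 10.5 FPKM (0.02). The nuclease subunits that cut on one side of the lesion, ERCC1 and ERCC4, had log2 fold changes of -0.13 and 0.12. With the GC trend removed the signs of ERCC3, ERCC1 and ERCC4 turned. ERCC8, part of a ubiquitin ligase in the repair step at stalled RNA polymerase, had the highest fold change of excision repair at 1.69 and 4.07 FPKM (0.91). ERCC6, its partner in that step, was at 1.195 and 1.57 FPKM (0.23, or -0.24 with the GC trend removed). ERCC2 and ERCC8 remained past 1.5-fold with the GC trend removed, at -0.72 and 0.72.

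ERCC5, the nuclease on the other side of the lesion, shares exons with another gene. It was at 4.93 and 7.88 FPKM (0.58), just within 1.5-fold, but past it with smaller pseudocounts or none and with 2 of the scalings. The readthrough gene BIVM-ERCC5, which contains its exons on the same strand, was at 4.33 and 1.15 FPKM (-1.31). Their summed level was 9.27 and 9.03 FPKM, a log2 fold change of -0.03, so the difference in ERCC5 was not seen in the sum. How fragments were divided between them was not tested. Of 16 further genes of nucleotide excision 7 were higher and 9 lower (median -0.10), which became 9 and 7 without the 20 most abundant genes and 6 and 10 with the GC trend removed. CETN2, a partner of XPC, was highest at 15.5 and 25.4 FPKM (0.68). LIG1, the ligase that seals the gap in dividing cells, was lowest at 23.9 and 10.6 FPKM (-1.10). With the GC trend removed CETN2 was at 0.38 and LIG1 at -0.78, while XAB2 was highest (0.53) and CCNH lowest (-0.91).

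None of the 7 mismatch repair genes was past 1.5-fold, against 42.4% of all genes. Of the 7, 4 were higher and 3 lower (5 and 2 with upper quartile scaling and without the 20 most abundant genes, but 1 and 6 with the GC trend removed). MSH6, which recognises single mismatches, was at 6.23 FPKM in the untreated and 6.00 FPKM in the bort library (-0.05, positive with 2 of the scalings), and MSH3, which recognises loops, was at 5.46 and 5.50 FPKM (0.01, negative with the GC trend removed). PMS2, a nuclease of the later steps, was at 5.45 and 4.08 FPKM (-0.34) and has 11 named pseudogene copies, so its level is uncertain. MLH3, a relative of PMS2, had the lowest fold change at 1.95 and 1.15 FPKM (-0.45), and -0.75 with the GC trend removed.

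The further genes of mismatch repair are largely those of the replication fork, and 7 of 15 were higher and 8 lower (median -0.17), or 4 and 11 with the GC trend removed. POLD1, the catalytic subunit of DNA polymerase delta, was lowest at 57.3 and 20.1 FPKM (-1.47). With the GC trend removed POLD1 was at -0.83 and POLD2, a further subunit of this polymerase, was lower (-1.03). POLD4, the smallest subunit of the same polymerase, was highest at 2.65 and 5.31 FPKM (0.79). Of the 15, 6 were lower by 1.5-fold or more, against 21.6% of all genes, and 1 was higher, against 20.8%.

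In end joining 2 genes were higher and 2 lower, and all 4 were lower with the GC trend removed. XRCC6 and XRCC5 encode the Ku ring that caps broken ends, and XRCC6, the most abundant repair gene in both libraries, was at 191 and 137 FPKM (-0.48) and has 5 named pseudogene copies. XRCC5 was at 87.5 and 53.1 FPKM (-0.71), and -0.87 with the GC trend removed. Both partners of the ring were thus lower in the bort library, and under each alternative. XRCC4 and LIG4, which form the ligase, were both higher in the bort library, with log2 fold changes of 0.44 and 0.37, but their signs turned with the GC trend removed (-0.08 and -0.17). XRCC4 transcripts were 3.004 times those of LIG4 in FPKM in the untreated and 2.98 times in the bort library. Of 8 further genes 7 were listed, 3 higher and 4 lower (median -0.22), or 6 and 1 with the GC trend removed (median 0.20), with TP53BP1, which protects ends from trimming, highest at 3.92 and 8.48 FPKM (0.95) and PAXX, a Ku-binding factor, lowest at 58.0 and 30.04 FPKM (-0.93, or -0.27 with the GC trend removed).

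The checkpoint genes lay close together, between -0.09 and 0.18, but between -0.47 and 0.59 with the GC trend removed. The kinase ATM, which answers to breaks, was at 1.81 and 1.73 FPKM (-0.04, positive with 2 of the scalings). ATR, the kinase that answers to stalled forks, was at 2.31 and 2.75 FPKM (0.18, negative with the GC trend removed). Both were low in either library, and the loader and clamp genes RAD17, RAD1 and RAD9A lay between 6.56 and 10.5 FPKM. Of 10 further checkpoint genes 3 were higher and 7 lower (median -0.11), or 5 and 5 with upper quartile scaling and without the 20 most abundant genes, and 2 and 8 with the GC trend removed. RNF168, a ubiquitin ligase that marks chromatin at breaks, was highest at 10.6 and 24.99 FPKM (1.16). ATRIP, the partner of ATR, was lowest at 7.55 and 3.56 FPKM (-0.91). With the GC trend removed ATRIP was at -0.52 and CHEK1 was lowest (-0.79).

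The 6 genes with other main roles were all higher in the bort library, and 4 of them with the GC trend removed. RAD18, a ubiquitin ligase that lets forks pass damage, was at 6.55 and 11.9 FPKM (0.78). RAD21, a subunit of the cohesin ring, was at 25.2 and 40.0 FPKM (0.64). Neither passed 1.5-fold with the GC trend removed (0.47 and 0.30). MSH5, which acts in meiosis, was at 6.48 and 9.24 FPKM (0.45), and the readthrough gene MSH5-SAPCD1 on the same strand at 6.04 and 9.85 FPKM (0.62). Here, unlike at ERCC5, both genes that share exons had the same direction. RAD54L2, ERCC6L and ERCC6L2 lay between 0.04 and 0.15.

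The higher and the lower repair genes differed in base composition. The 8 genes higher by 1.5-fold or more had transcripts of 36.1% to 43.7% GC, and the 7 lower genes had transcripts of 44.2% to 63.8% GC, so the ranges did not overlap. The 49 genes within 1.5-fold spanned 36.2% to 60.6% GC, most of both ranges. Of all genes with a transcript, those higher and those lower by 1.5-fold or more had overlapping ranges, with medians of 42.4% and 57.0% GC. Over the 64 genes the Spearman correlation of the log2 fold change with GC content was -0.55, and over the 10907 genes of the table with a transcript it was -0.48, both across genes of the same pair of libraries. Sorted by GC content, the lower 32 repair genes held 7 of the 8 higher by 1.5-fold and 0 of those lower by as much. The upper 32 held 1 and 7. All genes sloped the same way. Their median log2 fold change was 0.48 in the bin centred on 38% GC and -0.48 in that on 62% GC. The shares of all genes past 1.5-fold at low and at high GC are not given here. Whether the split of the repair genes goes beyond this background was not tested. The correlation with transcript length over the repair genes was 0.06. With the GC trend of all genes removed, 23 repair genes were higher and 41 lower, against 37 and 27 before. Of all genes 5523 were then higher and 5384 lower, against 5526 and 5461 before.

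**Figure D4:**
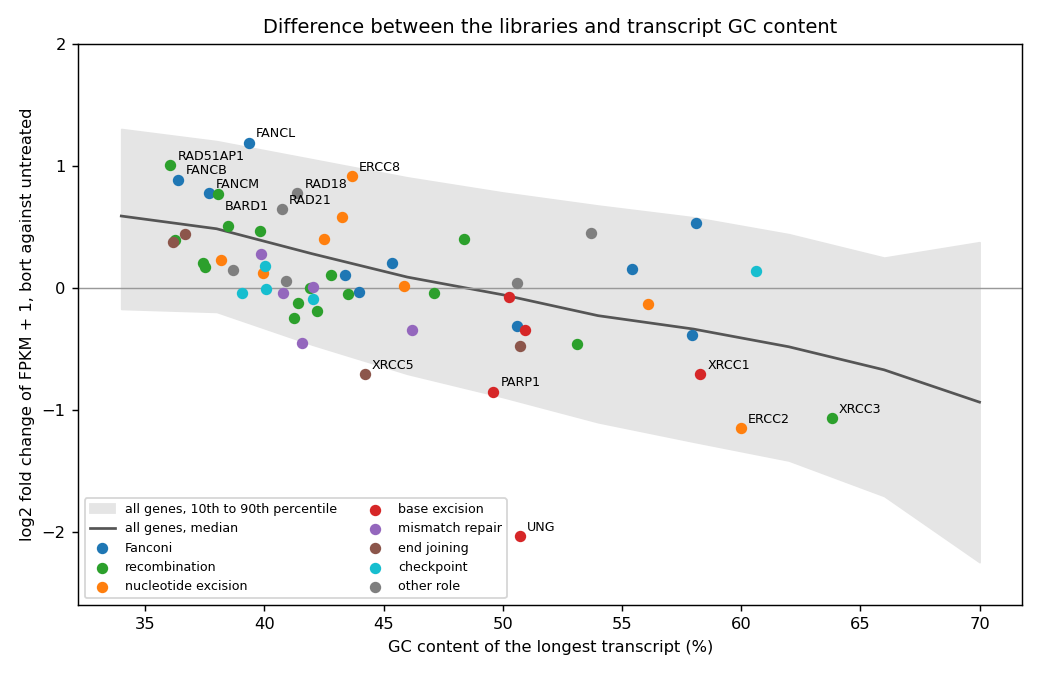
Log2 fold change of FPKM + 1, bort against untreated, against the GC content of the longest transcript for 60 of the 64 repair genes, coloured by group. The grey line and band are the median and the 10th to 90th percentile of all genes in bins of GC content. The repair genes slope down with the line for all genes, and UNG lies furthest below the band.

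Removing the trend thus left some of the named genes in place and not others. FANCL and ERCC8 were still higher, and UNG, PARP1, XRCC5 and ERCC2 were among those still lower by 1.5-fold or more, 2 of 8 and 5 of 7 in all. FANCG, RAD9A and MSH5 then joined the higher genes and MLH3 the lower ones. The group medians became 0.19 for the Fanconi genes, -0.20 for recombination, -0.07 for nucleotide excision, -0.34 for base excision, -0.26 for mismatch repair, -0.27 for end joining and -0.36 for the checkpoint genes. What gave rise to the trend with GC content was not tested.

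Part of the repair genes share exon sequence with other genes, which can move fragments between them. In GENCODE 29 the exons of 7 repair genes overlapped another protein-coding gene on the same strand, those of 20 did so on the opposite strand, and 10 had pseudogenes named after them, 33 genes in all. Of the genes past 1.5-fold, FANCB, FANCM, BARD1, ERCC8, RAD18 and XRCC5 had none of these. UNG and PARP1 each had 2 named copies and RAD51AP1 had 1. FANCL overlapped VRK2, RAD21 overlapped UTP23 and ERCC2 overlapped KLC3, each on the opposite strand, and XRCC1 overlapped L34079.1 on its own strand. Whether fragments were assigned by strand is not given in the sources used here.

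Genes of S phase and targets of p53 were read beside the repair genes, since many repair genes are expressed with DNA replication and some answer to p53. Of 24 S phase genes 3 were higher and 21 lower in the bort library, with a median of -0.65 (-0.48 with the GC trend removed) and sums of 1335 and 798 FPKM. MCM2, a subunit of the replicative helicase, was lowest at 46.5 and 16.7 FPKM (-1.42). CCNE2, a cyclin of the entry into S phase, was highest at 2.25 and 5.32 FPKM (0.96). With the GC trend removed MCM2 was at -1.05 and CCNE2 at 0.44, while GINS4 was lowest (-1.32) and RRM2 highest (0.85). Of 16 p53 targets 14 were listed, 9 higher and 5 lower, with a median of 0.18. CDKN1A, the inhibitor of cyclin-dependent kinases, was highest at 0.680 and 19.8 FPKM (3.63), and FDXR, a mitochondrial reductase, was lowest at 13.2 and 4.35 FPKM (-1.41). The repair genes as a whole had a median of 0.10, which became 0.18 with upper quartile scaling, 0.19 without the 20 most abundant genes and -0.16 with the GC trend removed. The part of either list in the values of UNG or of any other repair gene was not tested.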

How the data were processed

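Poly-A RNA (by the study's methods; the labels say total RNA) of 2 libraries was sequenced, 1 per condition. The deposited values, named raw counts but headed FPKM and not whole, were taken as FPKM per gene. The authors made them with HISAT2 2.0.4 (mapping) and StringTie 1.2.3 (abundance) on GRCh37 per the submitters' processing notes. Each gene listed reached 0.501 FPKM or more in at least 1 library. Read depth is unknown, so no counting error is given. Fold changes used a pseudocount of 1 FPKM and were set against all genes at 1.5-fold and 2-fold. The members and lists were chosen with earlier results of these data known. The rule for named genes took each member past 1.5-fold, the highest and lowest fold change and the most abundant member of each main group, set partner pairs, and the highest and lowest fold change of each further list. Other members were named for their role, after their values were seen. GC content came from the longest GENCODE 29 transcript (10907 genes), and its trend was removed by lowess (span 0.3). Other pseudocounts, filters and scalings were tried, and simulated data tested the calculations. Python 3.11.15, pandas 2.3.3 and statsmodels 0.14.6 were used. The values of 4 members are not reported here.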

Additional observations from a re-analysis of the deposited data

How the results depend on the processing

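All 15 repair genes past 1.5-fold had the same sign under each of 9 alternatives that gave a value, and 7 were past 1.5-fold in each. The pseudocounts and the filters cannot change a sign, and the shifts by the scalings were small beside 1.5-fold. Removing the GC trend was thus the only alternative that could have turned the sign of these 15. Over the 64 genes, 39 had the same sign throughout, where only the scalings and the removal of the GC trend could turn a sign. A median or a gene's value was taken as moved at more than 0.2 on the log2 scale, and a count at more than 1.5 times. The median of all genes, 0.00, became 0.09 with upper quartile scaling and 0.10 without the 20 most abundant genes. The number higher by 1.5-fold or more went from 8 (20.8% of all genes) to 13 with each of these scalings (24.2% and 24.4%). It went to 5 with the GC trend removed (18% of all genes). It also went to 5 without the genes that overlap another gene or have a named copy (31 genes left). The number lower by 1.5-fold or more went from 7 (21.6% of all genes) to 1 without those genes. It went to 4 when only overlaps on the same strand and copies were left out (47 genes left), a choice made after seeing the data. Fewer genes were counted there, and overlaps were looked up for the repair genes only. No share of all genes could thus be set beside the counts without such genes. At 2-fold, the number higher went from 2 to 6 with a pseudocount of 0.1 FPKM or none and to 4 with 0.5 FPKM, while the share of all genes rose from 8.08% to 14.3%, 15.1% and 10.7%. The number higher went to 1 with the median of ratios and to 0 with the GC trend removed, which took the number lower from 4 to 1. Removing the GC trend also moved the medians of all 64 genes from 0.10 to -0.16, of recombination from 0.14 to -0.20, of base excision from -0.71 to -0.34, of mismatch repair from 0.01 to -0.26, of end joining from -0.05 to -0.27 and of the checkpoint genes from -0.01 to -0.36. The cause was not tested. No paired analysis was possible because there is 1 library of each kind, so none could be left out.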
